A study of Mus musculus with 4 samples.

Results

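The genes described here are 10 proteases and protease inhibitors of cytotoxic lymphocytes, of 27998 genes in the count matrices: the serpins Serpinb9, Serpinb6b and Serpina3g, the cathepsin inhibitors Ctla2a, Ctla2b and Cst7, and the cathepsins Ctsc, Ctsd, Ctsb and Ctsw. They were chosen by symbol, and each symbol was found once in each matrix. Their mRNA was followed in virus-specific CD8+ T cells that carried or lacked Bcl3, which encodes an atypical IκB protein of the NF-κB pathway. Mixed bone marrow chimeras were made in sub-lethally irradiated Rag1-/- hosts, which lack T and B cells of their own but not myeloid cells, with wild-type marrow (WT, CD45.1) and Bcl3-/- marrow (KO, CD45.2), on the C57bl/6 background. On day 8 after infection with the Armstrong strain of LCMV, a virus that mice clear, CD8+ cells binding the H-2Db-GP33 tetramer were sorted from the spleens of 2 chimeras by their CD45 allele and captured as 4 droplet libraries, of which chimera 1 gave WT1 and KO1 and chimera 2 the remaining pair, WT2 and KO2. Since every KO cell carried CD45.2 and every WT cell CD45.1, genotype and congenic marker cannot be told apart. No source used here gave the ages of the animals.

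Cytotoxic T cells kill with granules that hold perforin and granzymes, serine proteases that become active once cathepsin C (Ctsc) has removed a dipeptide from their precursors. The same cells make inhibitors that keep these proteases in check: Serpinb9 inhibits granzyme B, Serpinb6b inhibits granzyme A in the mouse, cystatin F (Cst7) inhibits cathepsin C and other cysteine cathepsins, Serpina3g (Spi2A) inhibits cysteine cathepsins such as cathepsin B (Ctsb), and Ctla2a and Ctla2b resemble the propeptide of cathepsin L-like proteases. Cathepsin W (Ctsw) is a cathepsin of cytotoxic lymphocytes, and cathepsin D (Ctsd) is the aspartic protease of lysosomes.

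A minimum of 500 genes and a maximum of 10% mitochondrial UMIs per cell left 4941, 8092, 5366 and 6494 cells for WT1, WT2, KO1 and KO2, with a median of 3571, 2019, 3620.5 and 2948 UMIs. The whole matrices held between 20358780 and 22922219 UMIs. WT2 had the most cells and the fewest UMIs per cell, and any 2 libraries shared 37 to 63 cell barcodes. All 5 T cell markers found in the matrices, Cd3 and Cd8 chains, were present in every library, with Cd8b1 the most abundant. Bcl3 itself was counted at 33.2, 108, 27.6 and 86.6 counts per 1000000 UMIs (CPM) in WT1, WT2, KO1 and KO2. It differed more between the chimeras than between the genotypes, and since the libraries count 3′ ends and no source used here names the deleted part of the gene, these counts check no label.

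Each library was clustered without the 10 genes and the other genes of the protease and inhibitor lists, and clusters were named from markers. Terminal effector (TE) clusters, marked by genes such as Klrg1, Cx3cr1, Zeb2 and Gzma, held 849, 1089, 1112 and 1138 cells in WT1, WT2, KO1 and KO2. Clusters with genes of memory precursors and naive cells (Tcf7, Ccr7, Id3, Dapl1), called MPEC-gene clusters, held 347, 425, 47 and 171 cells. Cycling clusters held 533 to 1051 cells, interferon-stimulated clusters 129 to 393 cells, and unnamed T cell clusters 2261 to 4828 cells. The KO1 MPEC-gene cluster was below 1% of its library and was left out of the sum over T cell clusters and of the interaction against the other T cells, but kept in the T cell median depth and among the other T cells of the state ratios. Its cells were also unlike those of the others: Cd4 was counted in 12.8% of them against 4.90%, 4.94% and 4.09% in WT1, WT2 and KO2, and Cd8a in 44.7% against 74.1%, 60.2% and 62.6%, while an unnamed KO1 cluster of 910 cells was led by Tcf7 and Il7r. The MPEC-gene clusters thus did not hold the same kind of cells in each library, and the part of this in the values given for them was not tested. B cells (105 to 134 per library) and monocytes or macrophages (115 to 146 per library) were also present in every library, and clusters of neutrophils held 112 cells in KO1 and 102 in KO2. In WT1 and WT2 the clusters led by neutrophil genes held 42 and 32 cells, under 1% of the library, and were left unnamed.

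In T cell clusters, Ctsd had the highest mean level of the 10 genes, with 967, 973, 1019 and 973 CPM for WT1, WT2, KO1 and KO2. Ctla2a was next, with 1022, 740.0, 990 and 649 CPM in the same order, followed by Ctsw with 606, 718, 538.5 and 550.1 CPM. Across the 4 libraries the ranges of Ctsd and Ctla2a overlapped, as did those of Ctla2a and Ctsw, whereas Ctsw was above each of the 7 remaining genes in every library. Serpinb6b (249 ± 45.5, mean ± SD, n = 4 libraries), Cst7 (229 ± 33.7) and Ctsb (214 ± 18.7 CPM) formed a middle tier whose ranges overlapped. Ctsc (142 to 162) and Serpinb9 (124 to 164 CPM) overlapped below them, and Ctla2b (102 ± 17.1) and Serpina3g (63.4 ± 23.9 CPM) overlapped at the bottom. These are counts of 3′ ends, which do not grow with transcript length. A lower level in such a sum can come from fewer cells that contain the transcript or from less RNA per cell, which cannot be told apart.

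**Figure D1:**
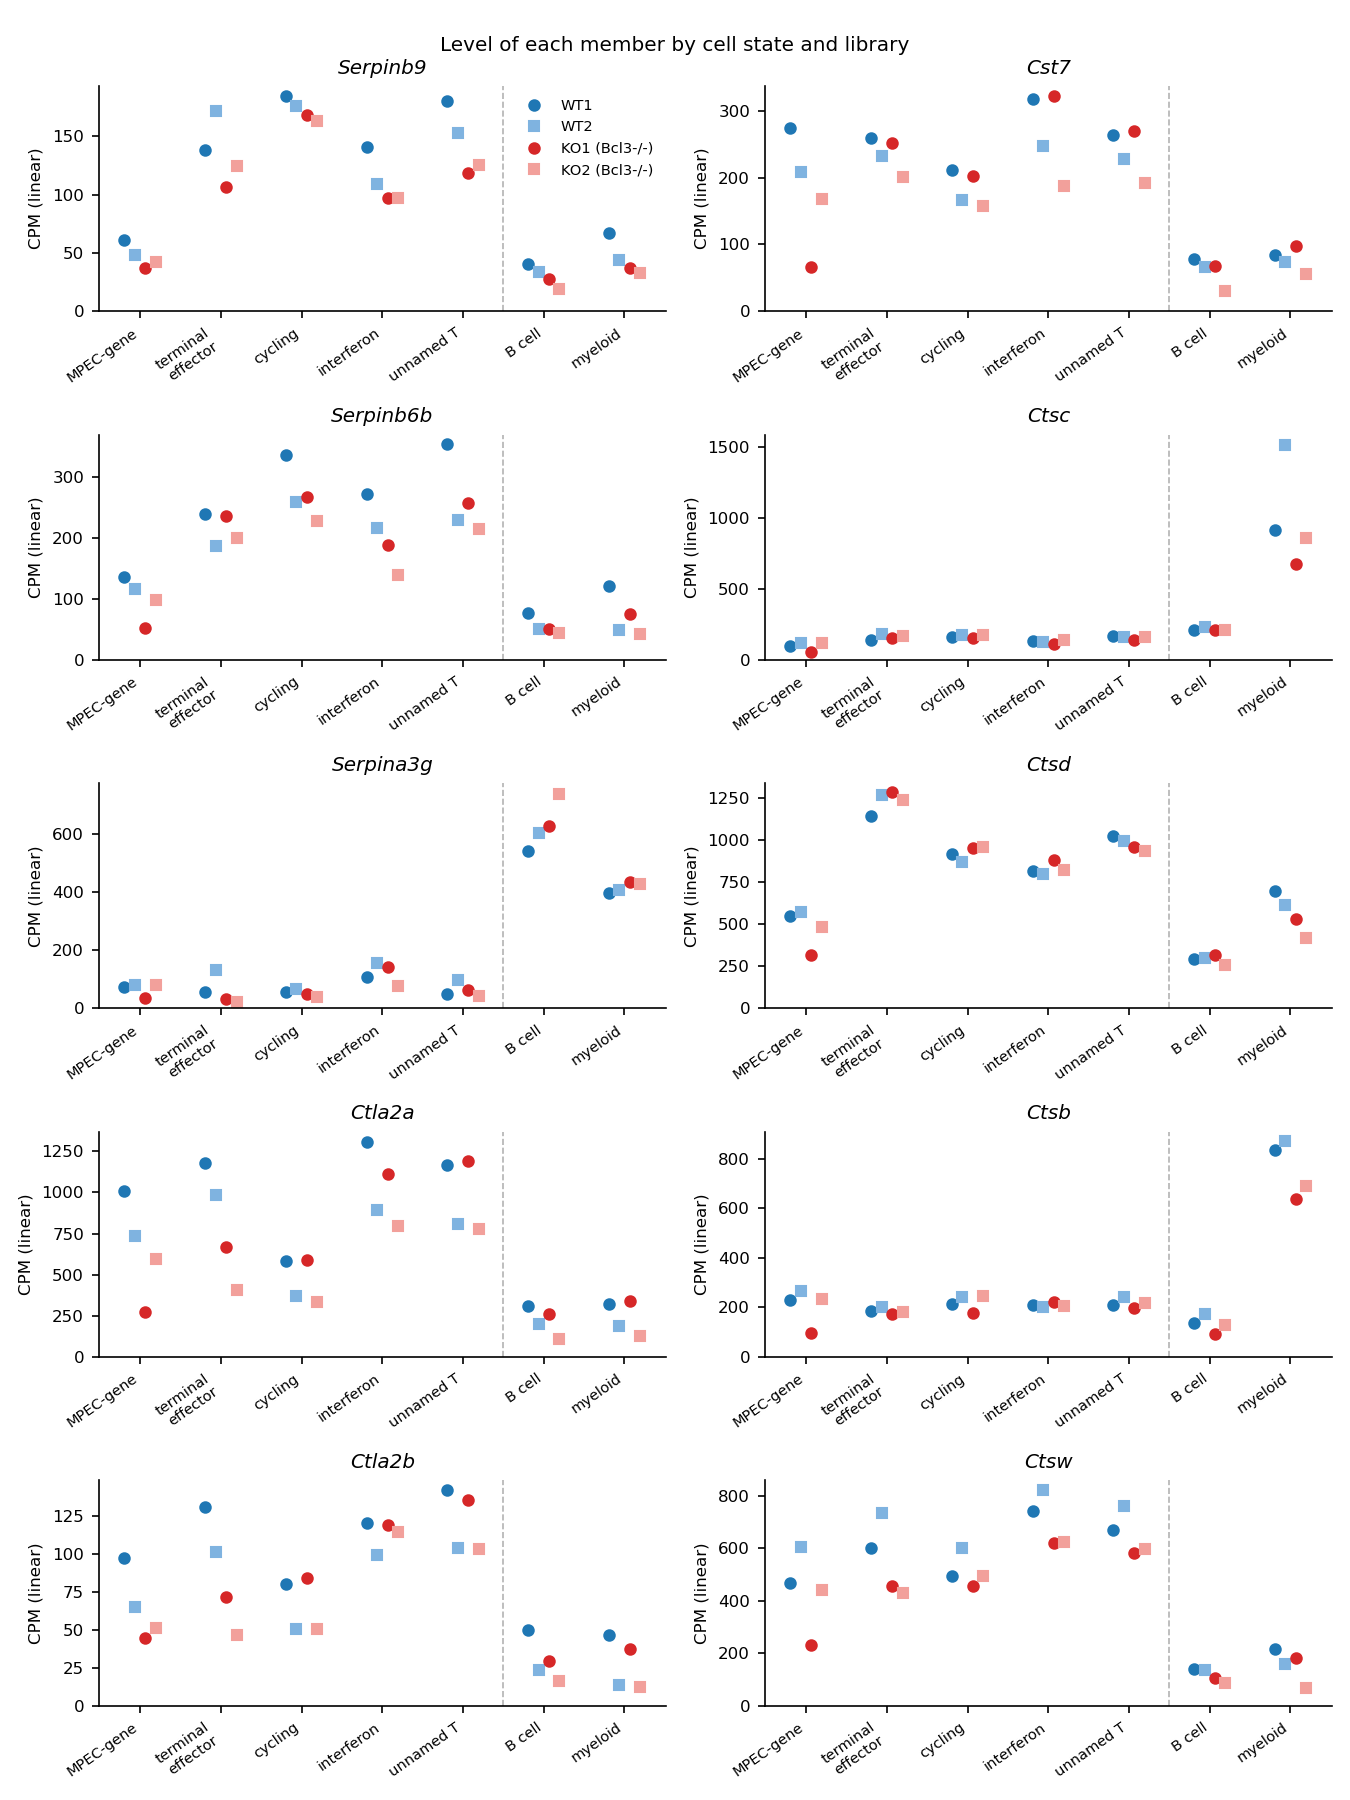
CPM (linear axis) of each of the 10 genes in 5 T cell states, B cells and monocytes or macrophages, with 1 point for each of the 4 libraries. Ctsd, Ctla2a and Ctsw are the highest in T cells, whereas Serpina3g and Ctsc are higher in B cells or myeloid cells than in any T cell state.

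Serpina3g, Ctsc and Ctsb were not confined to T cells. Serpina3g reached 541, 603, 628 and 738 CPM in the B cells of WT1, WT2, KO1 and KO2, against 58.1, 96.6, 59.2 and 39.7 CPM in their T cell clusters, and 39.0% of its UMIs in all cells came from other cell types. Ctsc reached 672 to 1513 CPM in myeloid cells against 142 to 162 CPM in T cell clusters, and 26.8% of its UMIs came from other cell types. For Ctsb the share was 19.4%, with 640 to 870.3 CPM in myeloid cells. For the other 7 genes the share was at most 5.13%. The shares come from a clustering of all 4 libraries together. In it, 9.26% to 9.70% of all UMIs of a library came from these other cell types. Barcodes with fewer than 100 UMIs, which sample free RNA, held 103, 128, 96.9 and 104 CPM of Serpina3g. This was above the level in T cell clusters of the same library, as for 8 of the 10 genes in all 4 libraries. The exceptions were Serpinb6b, below in each, and Cst7, above in 2. After thinning to 1000 UMIs per cell, which left out 15 to 223 cells of a library, at least 1 UMI of Serpina3g was seen in 5.04% (95% Clopper-Pearson interval 4.42 to 5.71), 8.38% (7.76 to 9.03), 5.27% (4.66 to 5.94) and 3.84% (3.37 to 4.35) of T cells, and in 36.0% to 51.6% of B cells. Without thinning the T cell shares were 15.5%, 15.2%, 15.3% and 9.11%. Median depth was 1999 to 3612 UMIs in T cells and 1974 to 2901 UMIs in B cells. The thinned share of T cells was 59.9% to 63.2% for Ctsd, 41.98% to 59.9% for Ctla2a and 40.0% to 50.7% for Ctsw, each above its share in B cells (14.4% to 29.1%, 10.3% to 18.1% and 9.52% to 11.2%). The intervals cover counting error only.

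The members on chromosome 13 form pairs of neighbours (GRCm38). Ctla2a (chr13:60934155-60936625, minus strand) and Ctla2b (chr13:60895350-60897447, minus strand) start 39178 bases apart, and Serpinb6b (chr13:32965209-32979067, plus strand) and Serpinb9 (chr13:33003250-33017957, plus strand) start 38041 bases apart. The others are Serpina3g (chr12:104236245-104241939, plus strand), Cst7 (chr2:150570415-150578944, plus strand), Ctsc (chr7:88278085-88310888, plus strand), Ctsd (chr7:142375911-142388038, minus strand), Ctsb (chr14:63122462-63145923, plus strand) and Ctsw (chr19:5465043-5468507, minus strand). These intervals are whole genes from the annotation. The 3 of the 10 genes with the largest fold changes between the genotypes in TE clusters, described further on, are shown by the 250 bases before their RefSeq starts, 5′ to 3′ in the direction of the gene, with matches to an NF-κB motif (GGG and CC separated by any 5 bases), a STAT motif (GAS, TTCNNNGAA) or an AP-1 motif (TGANTCA) in capitals.
Serpina3g: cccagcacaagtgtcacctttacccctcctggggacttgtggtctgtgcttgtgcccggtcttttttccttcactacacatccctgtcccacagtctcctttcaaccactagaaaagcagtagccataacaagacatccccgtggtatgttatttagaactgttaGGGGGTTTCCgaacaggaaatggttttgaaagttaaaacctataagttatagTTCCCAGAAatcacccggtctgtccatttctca
Ctla2a: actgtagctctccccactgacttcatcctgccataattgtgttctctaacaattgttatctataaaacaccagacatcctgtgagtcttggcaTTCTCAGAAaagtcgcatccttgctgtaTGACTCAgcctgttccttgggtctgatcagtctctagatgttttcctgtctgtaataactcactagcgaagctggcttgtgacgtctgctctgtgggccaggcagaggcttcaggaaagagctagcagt
Ctla2b: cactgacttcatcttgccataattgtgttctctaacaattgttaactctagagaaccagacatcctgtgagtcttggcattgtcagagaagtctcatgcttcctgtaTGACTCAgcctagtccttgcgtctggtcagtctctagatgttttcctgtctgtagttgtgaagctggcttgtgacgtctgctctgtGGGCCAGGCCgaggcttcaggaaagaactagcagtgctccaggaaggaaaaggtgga
They span chr12:104235897-104236146, chr13:60936626-60936875 and chr13:60897448-60897697 in RefSeq's GRCm38.p6. Serpina3g held the NF-κB letters from position -85 and the GAS letters from -33, counted from the start. Ctla2a held GAS letters from -157 and AP-1 letters from -129, and Ctla2b held AP-1 letters from -143 and NF-κB letters from -57. On both strands, 45.4% of 27025 promoters of this length held the NF-κB letters, 7.18% the GAS letters and 6.87% the AP-1 letters, so the first is a common match. The Ctla2a and Ctla2b promoters were identical at 91.7% of 228 aligned bases, against at most 77.2% for any other pair among the 8 members with a promoter in the table; Ctsb and Ctsw were the other 2. Reads can come from the last 500 bases of the transcript, compared here in 98-base windows. Of Serpina3g's windows 3.13% were shared with Serpina3f or Serpina3i, and of Ctla2a's 2.77% with Ctla2b or Kcnq1ot1. A read from a shared window could match either gene, and the share of such reads was not measured. Ctsc, Ctsb and Ctsw overlap Gm26522, Fdft1 and Fibp on the opposite strand, and the sources used here do not say whether counting used strand.

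The levels of some of the 10 genes differed between T cell states. State ratios compare a state with the other T cells of the same library, as the log2 ratio of CPM + 1, and were described over the 4 libraries without a test. Serpinb9 was lower in MPEC-gene clusters, with 61.5, 48.5, 37.2 and 42.2 CPM in WT1, WT2, KO1 and KO2, a log2 ratio of -1.62 ± 0.11 (SD, n = 4). It was the only one of the 10 genes that was at least 2-fold lower there in each library, as were 1.16% of 4985 genes. Serpinb6b, its neighbour, had a log2 ratio of -1.39 ± 0.58 there and Ctsd one of -1.09 ± 0.40. For both, the 47 cells of KO1 gave the lowest ratio. In a clustering of all 4 libraries together, where KO1 had 178 such cells, the ratios were -1.41 for Serpinb9, -1.06 for Serpinb6b and -0.92 for Ctsd. Against MPEC-gene clusters, TE clusters had more Serpinb9 (log2 ratio 1.16, 1.80, 1.49 and 1.54) and more Ctsd (1.05, 1.15, 2.01 and 1.35), at least 2-fold in each library for both, as for 1.08% of genes.

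TE clusters held 1145, 1270.1, 1288 and 1238 CPM of Ctsd. It was above the other T cells in each of the 4 libraries (log2 ratio 0.40 ± 0.07), whereas Ctsb was slightly below them (-0.23 ± 0.05). Cycling clusters had less Ctla2a than the other T cells, with 583, 372, 590.3 and 333 CPM (log2 ratio -1.02 ± 0.13) and less Ctla2b (-0.76 ± 0.20). At least 2-fold lower levels in each library were seen there in 0.14% of genes, and Ctla2a missed this only in KO1 (-0.85), at -1.003 to -1.16 in the other 3. In KO1 the MPEC-gene cluster was lower still, at 275 CPM. Serpinb9, by contrast, had its highest level in cycling clusters in each library, with 185, 176, 169 and 163 CPM (0.37 on average). Interferon-stimulated clusters had more Serpina3g than the other T cells, with 109, 156, 143 and 77.7 CPM, a log2 ratio of 1.02 ± 0.27. This was the highest level of the 5 states in 3 libraries, while in KO2 the MPEC-gene cluster stood at 80.9 CPM. In the unnamed clusters, which held the most cells in each library, the mean log2 ratio was 0.60 for Ctla2a and 0.67 for Ctla2b.

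**Figure D2:**
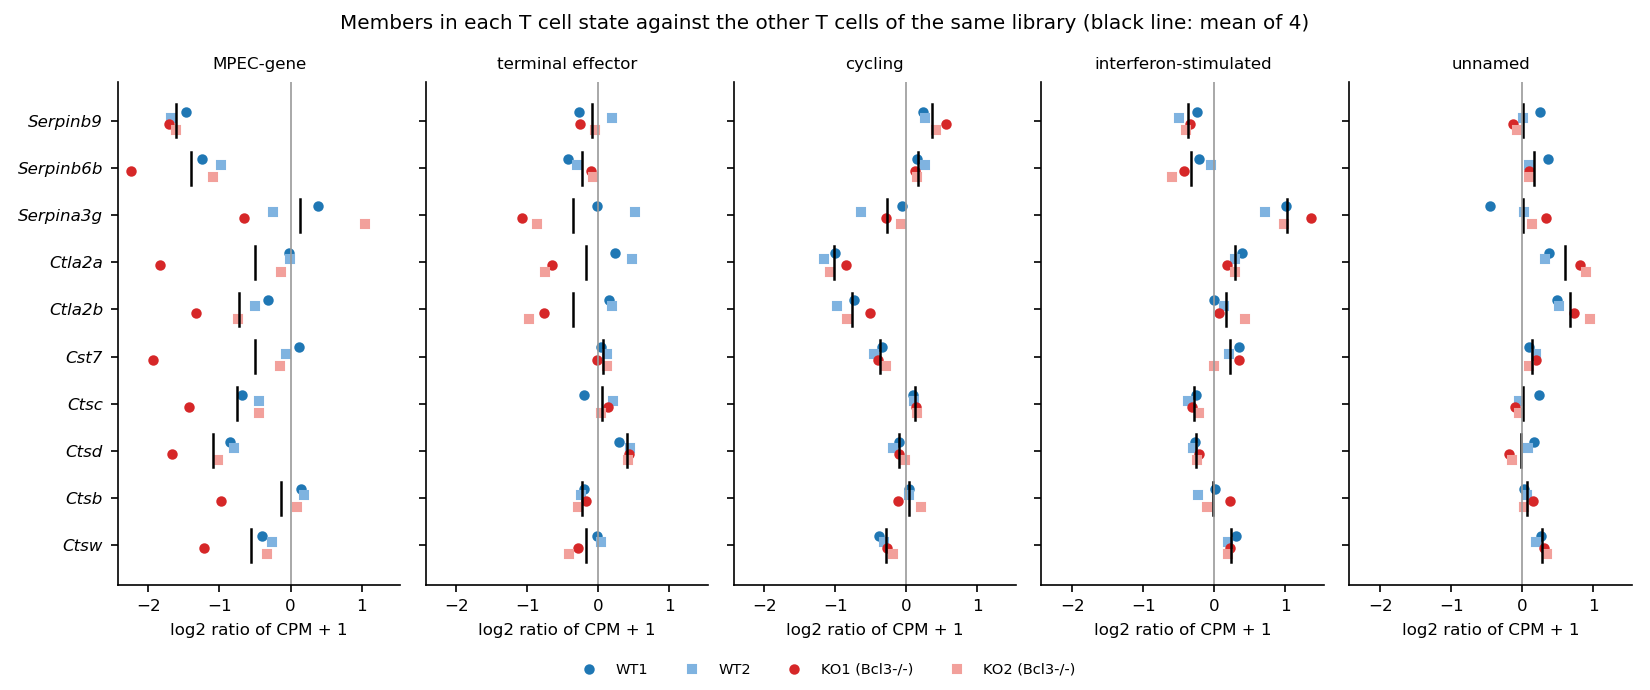
Log2 ratio of CPM + 1 in each T cell state over the other T cells of the same library, 1 point per library with a black line at the mean of 4. Serpinb9 is lowest in MPEC-gene clusters (mean -1.62), Ctla2a in cycling clusters (-1.02), and Serpina3g is highest in interferon-stimulated clusters (1.02).

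Over the 20 sums of 5 states in 4 libraries, which share libraries and depth, the levels of Ctla2a and Ctla2b followed each other (Pearson r = 0.919 on log2(CPM + 1)), as did those of Serpinb9 and Serpinb6b (0.906), whereas Serpinb9 and Serpina3g did not (-0.034). These sums include the small KO1 MPEC-gene cluster, the lowest of its state for each member, and the correlations were not repeated without it. Among the 4997 other genes compared, the pattern of Serpinb9 was most like those of AA467197 (0.939), Lgals3 (0.933) and Tmsb4x (0.916). Ctsd was most like the integrin chain Itgb2 (0.981), S100a10 (0.960) and Tbx21 (0.955), the transcription factor T-bet and itself a TE marker. Serpina3g was most like Pla2g16 (0.836), the proteasome activator subunit Psme1 (0.829) and Ly6a (0.807). Ctla2a was most like Sdcbp2 (0.894), Cd3d (0.878) and Tmem191c (0.851), and Ctla2b like Sdcbp2 (0.871), Prdx5 (0.845) and Lilr4b (0.839). For the other members the first genes were Sh3bgrl3 (0.938, Serpinb6b), Arap2 (0.913, Cst7), 1700017B05Rik (0.963, Ctsc), Ptpn11 (0.918, Ctsb) and Tonsl (0.927, Ctsw).

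Between the genotypes, the granzyme B inhibitor Serpinb9 and cathepsin Ctsw stood lower in both KO than in both WT libraries over T cell clusters. They were the only 2 of the 10 genes to do so, a share close to the 19.4% of all genes. Serpinb6b, Ctla2a, Ctla2b, Ctsc and Ctsb were also lower in KO within each chimera, with log2 ratios of -0.31 to -0.016, but their WT and KO levels overlapped. In T cell clusters Serpinb9 was counted at 164, 152, 124 and 128 CPM in WT1, WT2, KO1 and KO2, a mean of 158 ± 8.47 in WT and 126 ± 3.08 in KO (SD, n = 2). Ctsw, counted as given above, averaged 662 ± 79.2 CPM in WT and 544 ± 8.23 in KO. With Ctsd, higher in KO, 3 of the 10 genes did not overlap, where 43.5% of all genes did not. By edgeR (quasi-likelihood, p adjusted by Benjamini-Hochberg), none of the 10 genes passed an adjusted p of 0.05 over the T cell clusters, where 0.252% of 11101 genes did: Serpinb9 had a log2 fold change of -0.34 (SE 0.10, adjusted p = 0.239) and Ctsw of -0.29 (SE 0.11, adjusted p = 0.328). Libraries of the same chimera deviated together, and with the chimera as a block 9.73% of genes passed and 4.94% were lower in KO cells, among them Serpinb9 (-0.34, SE 0.07, adjusted p = 0.00538 by edgeR), Ctsw (-0.29, SE 0.07, adjusted p = 0.0218) and Serpina3g (-0.63, SE 0.19, adjusted p = 0.0480). Serpina3g no longer passed with the block in the joint clustering (-0.65, adjusted p = 0.0877), and its direction over T cell clusters was not shared by the chimeras, with 58.1 and 59.2 CPM in WT1 and KO1 against 96.6 and 39.7 CPM in WT2 and KO2. With 1 library left out and no block, its log2 fold change there ran from -1.01 to -0.26. The p-values rest on 2 libraries per genotype. Without the block they measure the spread between the libraries of a genotype, and with it how far the genotype difference varies between the chimeras. In every edgeR fit the variance of a gene is moderated by that of the other genes, so small p-values do not rest on these libraries' spread alone.

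Over all cells the picture was similar. Serpinb9 stood at 155, 143, 115 and 120 CPM (log2 fold change -0.36, SE 0.10, adjusted p = 0.169 by edgeR) and Ctsw at 573, 670, 502 and 510 CPM (-0.31, SE 0.11, adjusted p = 0.253). None of the 10 genes passed without the block, where 0.363% of 11566 genes did, and 4 passed with it, Serpinb9 (adjusted p = 0.00513), Ctsw (0.0202), Ctsc (0.0333) and Serpinb6b (0.0473), where 9.65% of genes did. The 4 were lower in KO cells, as were 4.84% of all genes. Ctsc and Serpinb6b did not pass within T cell clusters (-0.08, adjusted p = 0.51, and -0.21, adjusted p = 0.0586 by edgeR with the block). Serpinb9 and Ctsw were the 2 of the 10 genes whose WT and KO levels did not overlap, both lower in KO cells, as for 18.8% of all genes, a similar share. The median log2 fold change of the 10 genes was -0.21 over all cells and -0.12 over T cell clusters, against 0.0074 and 0.0073 for all genes tested. With 1 library left out it ran from -0.39 (without KO1) to -0.11 (without WT1) over all cells and from -0.36 to -0.021 over T cell clusters, and without WT1 5 of the 10 genes were above 0 in both. Ctsd averaged 970 ± 4.08 CPM in WT and 996 ± 32.5 CPM in KO T cell clusters, a difference smaller than the spread between the KO libraries (log2 fold change 0.03, adjusted p = 0.925).

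**Figure D3:**
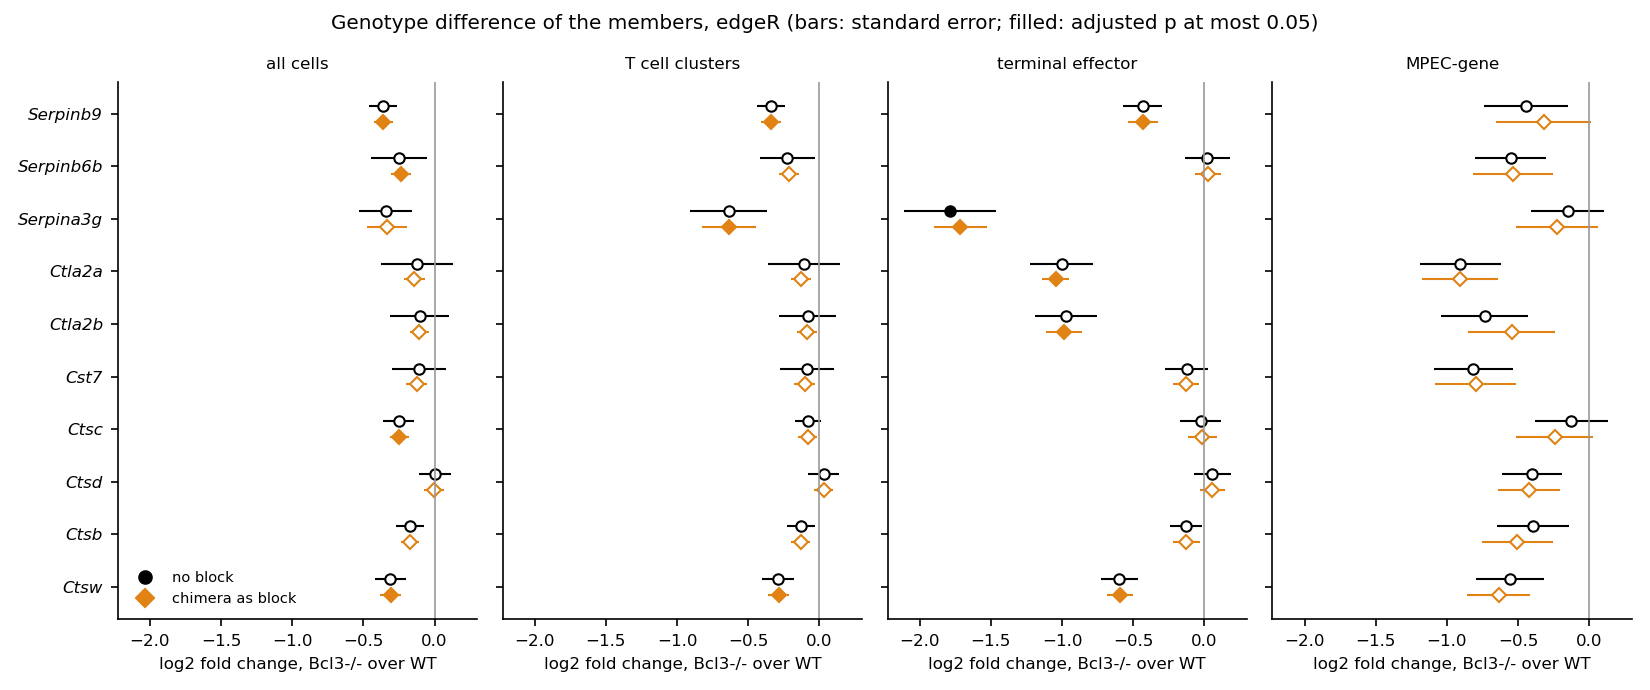
Log2 fold change of KO over WT with its standard error for the 10 genes in all cells, T cell clusters, terminal effector clusters and MPEC-gene clusters. Black circles come from edgeR without a block and orange diamonds from edgeR with the chimera as a block; filled symbols passed an adjusted p of 0.05. Without the block 1 symbol is filled, Serpina3g in terminal effector clusters at -1.79.

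Within TE clusters 6 of the 10 genes stood lower in both KO libraries than in both WT libraries, as did 19.6% of all genes: the inhibitors Serpina3g, Ctla2a, Ctla2b and Serpinb9 and the cathepsins Ctsw and Ctsb. Serpina3g was counted at 57.6, 131, 30.6 and 23.0 CPM in WT1, WT2, KO1 and KO2. It fell by 1.79 on the log2 scale (SE 0.32, adjusted p = 0.0311 by edgeR), where 1.04% of 8647 genes passed and 0.613% were lower. In this fit it was the only one of the 10 genes to pass. With DESeq2 2 of them passed, where 64 of 8524 genes did, and with no filter on low counts 4, where 456 of 13496 genes did. Without KO2 the change was -1.58 and no longer passed (adjusted p = 0.191). Without WT2, whose level was the highest, it was -1.12 (adjusted p = 0.000548). Free or stray RNA of B cells, scaled by their markers, would give 5.31, 4.82, 6.74 and 4.53 CPM of Serpina3g in these clusters of WT1, WT2, KO1 and KO2. That of myeloid cells would give 6.98, 7.49, 7.74 and 5.73 CPM. These amounts are a larger part of the KO levels than of the WT levels, and their part in the difference was not tested.

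Ctla2a was counted at 1177, 985, 670.1 and 410.1 CPM in TE clusters, and Ctla2b at 130.4, 101, 71.8 and 46.4 CPM. The KO libraries stood lower in each chimera, at -0.81 and -1.26 on the log2 scale for Ctla2a and at -0.85 and -1.11 for Ctla2b. Ctsw followed with 600, 733, 455 and 430 CPM. Without the block and with low counts filtered, these 3 missed the threshold (Ctla2a -1.0, SE 0.22, adjusted p = 0.0786, Ctla2b -0.97, SE 0.22, adjusted p = 0.0816, and Ctsw -0.60, SE 0.13, adjusted p = 0.0750 by edgeR). Ctla2a and Ctla2b passed without the block when WT1, WT2 or KO1 was left out (adjusted p = 0.00028 to 0.0132) and not when KO2 was, with fold changes from -1.45 to -0.66 and from -1.38 to -0.67. Ctsw and Serpinb9 passed without WT1 (adjusted p = 0.00399 and 0.0264). With the chimera as a block 5 of the 10 genes were lower in KO cells, where 4.12% of genes were: Serpina3g (-1.71, adjusted p = 5.86e-10), Ctla2a (-1.04, 3.7e-12), Ctla2b (-0.98, 4e-08), Ctsw (-0.59, 4.5e-06) and Serpinb9 (-0.43, adjusted p = 0.00405). Serpinb9 stood at 139, 172, 106 and 125 CPM and Ctsb at 185, 203, 173 and 183 CPM. The other inhibitors and proteases had close levels in TE clusters of both genotypes, among them Cst7 with 260.1, 232, 253 and 201 CPM and Ctsc with 137, 184, 153 and 164 CPM.

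The TE clusters were not equally marked. Their 8 marker genes summed to 3160, 6164, 8371 and 9649 CPM in WT1, WT2, KO1 and KO2, and without Gzma, the most abundant, to 850, 1350, 1694 and 1698 CPM, so that WT1 and to a lesser degree WT2 held fewer transcripts of these markers than the KO libraries. In the joint clustering the sums lay closer together (5925, 9067, 9388 and 10434 CPM, and 1361, 1607, 1835 and 1829 without Gzma), and the fold changes were smaller: -1.17 for Serpina3g (adjusted p = 0.154 by edgeR), -0.61 for Ctla2a (0.369), -0.60 for Ctla2b (0.356) and -0.46 for Ctsw (0.201), with none of the 10 genes called where 0.531% of genes were. With the block as well, Serpina3g (-1.14, adjusted p = 0.0161), Ctla2a (-0.63, 0.000448), Ctla2b (-0.61, 0.0245) and Ctsw (-0.46, 0.00762) passed, where 1.27% of genes were lower. The part of this unequal marking in the TE differences was not tested. Markers of B cells summed to 229 to 334 CPM, with Cd74 the most abundant, markers of myeloid cells to 299 to 543 CPM, and markers of neutrophils to 195 to 580.3 CPM in the TE clusters.

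Whether the genotype difference itself differed between T cell states was tested as an interaction. Against MPEC-gene clusters, the genotype difference of Serpina3g in TE clusters was lower by -1.66 (SE 0.32, adjusted p = 0.000301 by edgeR), while 0.477% of 8602 genes passed and none of the other 9 did. This call was lost without WT2 (-1.03, adjusted p = 1), without KO2 (-0.46, adjusted p = 0.856), in the joint clustering (-1.0, adjusted p = 0.405) and with DESeq2 (-1.42). In the joint clustering Ctla2a passed instead (-0.43, adjusted p = 0.0189), where 0.204% of genes were lower. With each library clustered on its own, its sign depended on the KO library left out, as it was -0.85 without KO1 (adjusted p = 1.58e-08) and 0.97 without KO2 (adjusted p = 0.000885), where Cst7 (1.90, 0.000176), Ctsd (0.91, 0.00105) and Ctsb (1.2, adjusted p = 0.0468) also passed. Against all other T cells, a contrast added once the small KO1 MPEC-gene cluster had been seen, 4 of the 10 genes passed where 1.87% of 10659 genes were lower: Serpina3g (-1.33, SE 0.16, adjusted p = 1.22e-05), Ctla2a (-1.07, SE 0.07, 1.27e-10), Ctla2b (-1.04, SE 0.11, 1.04e-06) and Ctsw (-0.36, SE 0.06, 0.000363). The ratio of Ctla2a in TE clusters to the other T cells was 0.24 and 0.48 on the log2 scale in WT1 and WT2 and -0.66 and -0.76 in KO1 and KO2, and that of Ctla2b 0.14, 0.19, -0.77 and -0.98. Outside TE clusters Ctla2a stood at 996, 707, 1057 and 693 CPM, within the same range in both genotypes. In the joint clustering Ctla2a (-0.57, adjusted p = 6.25e-09) and Ctla2b (-0.58, 0.0288) still passed, where 0.234% of genes were lower, and Serpina3g (-0.57, 0.271) and Ctsw (-0.20, 0.198) did not. There the WT ratios were below 0 as well, at -0.17 and -0.08 for Ctla2a, -0.28 and -0.16 for Ctla2b and -0.52 and -0.19 for Serpina3g, against -0.68 and -0.71, -0.75 and -0.88, and -0.96 and -0.72 in the KO libraries.

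**Figure D4:**
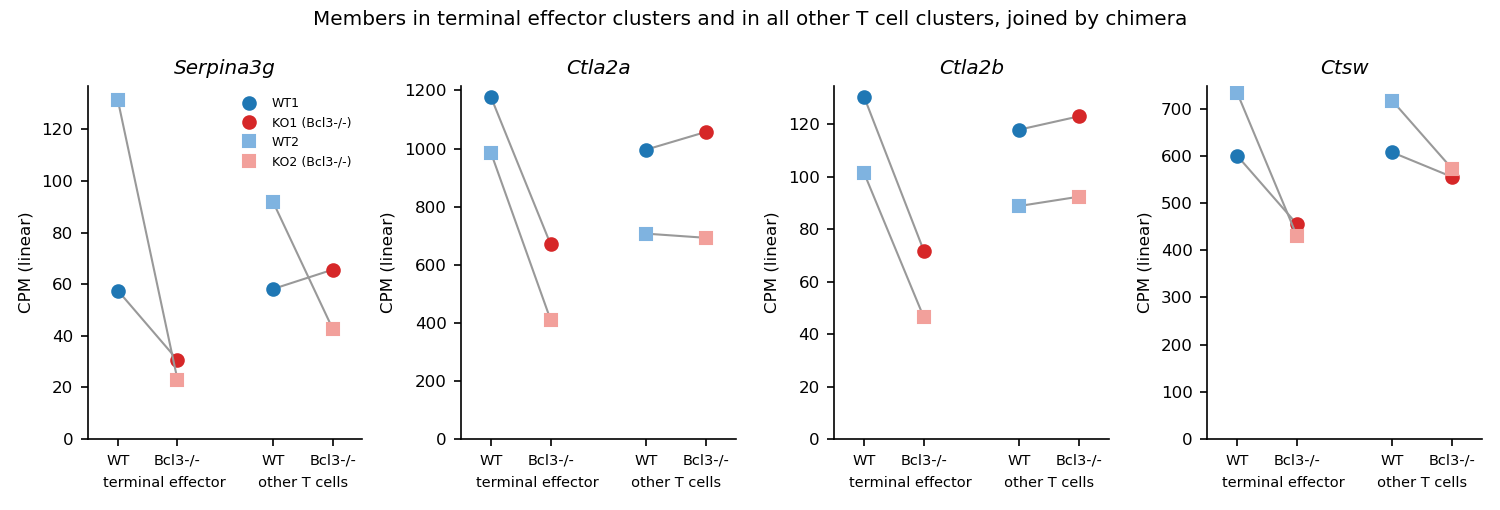
CPM of Serpina3g, Ctla2a, Ctla2b and Ctsw in terminal effector clusters and in the other T cells, WT and KO joined by a line for each of the 2 chimeras. In terminal effector clusters all lines fall from WT to KO, whereas in the other T cells those of Ctla2a and Ctla2b are nearly level.

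In MPEC-gene clusters none of the 10 genes passed without the block or with it, where 0.279% and 0.495% of 6459 genes did. Ctla2a was counted at 1011, 733, 275 and 595 CPM (log2 fold change -0.91, SE 0.28, adjusted p = 0.429 by edgeR). KO1 was the lowest library for each of the 10 genes and rested on 47 cells that differed from those of the other clusters, and without KO2 Ctla2a (-1.56, adjusted p = 6.64e-06), Cst7 (-1.75, 0.00139), Ctsb (-1.25, 0.0413) and Ctsw (-1.10, 0.0127) passed. The median log2 fold change of the 10 genes was -0.50, against -0.0065 for all genes tested. With 1 library left out this median ran from -1.03 (without KO2) to -0.36 (without KO1). In the joint clustering, with 178 cells in KO1, it was -0.18, with 2 of the 10 genes above 0, and Ctla2a differed by -0.18 (adjusted p = 0.893).

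The wider families were examined from lists of symbols. Over all cells, 17 of 19 cathepsins and related lysosomal proteases, 7 of 12 cystatins, 12 of 36 serpins, 11 of 18 other protease inhibitors and 10 of 10 granule proteins could be tested. Without the block 1 of them passed, Wfdc21, a whey acidic protein family member that rose from 23.9 and 19.0 CPM in WT to 48.1 and 50.6 CPM in KO (1.18, adjusted p = 0.0269 by edgeR). It did not pass in T cell clusters (0.28, adjusted p = 0.821). With the chimera as a block 4 cathepsins were lower in KO cells, Ctsc, Ctsw, Ctss (-0.34, adjusted p = 0.00979) and Ctsz (-0.24, adjusted p = 0.0395), as were 2 serpins and 1 other inhibitor, and 3 other inhibitors were higher, among them Wfdc21 and its relative Wfdc17 (0.73, adjusted p = 0.000148). Among the 10 granule proteins 2 were lower and 1 was higher with the block. Of all genes tested 4.84% were lower and 9.65% passed in either direction with the block. Markers of neutrophils summed to 1646, 1081, 2844 and 3217 CPM over all cells of WT1, WT2, KO1 and KO2. With the neutrophil clusters of the joint clustering left out, Wfdc21 stood at 10.2, 5.85, 10.4 and 6.62 CPM, a log2 fold change of 0.078 (adjusted p = 0.938 by edgeR without the block), and Wfdc17 had one of 0.11 (adjusted p = 0.808).

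Within T cell clusters no gene of these lists passed without the block. With it, where 4.94% of all genes were lower and 9.73% passed in either direction, 2 of 16 cathepsins were lower in KO cells, Ctsw and Ctss (-0.30, adjusted p = 0.0193 by edgeR), the cysteine cathepsin of antigen-presenting cells, and none was higher. The 12 markers of myeloid cells summed to 406, 427, 363 and 271 CPM in the T cell clusters of WT1, WT2, KO1 and KO2, with Lyz2 the most abundant and none at 0, and the 9 of B cells to 356, 345, 331 and 252 CPM, with Cd74 the most abundant. Their part in the Ctss difference was not tested. Of 10 serpins 2 were lower, Serpinb9 and Serpina3g, and of 3 cystatins none passed. Of 10 other inhibitors Slpi, an inhibitor of neutrophil serine proteases, was lower, with 190, 182, 139 and 103 CPM (-0.64, adjusted p = 0.000173), and Reck, a membrane-bound inhibitor of matrix metalloproteinases, was higher (0.89, adjusted p = 0.00604) at 5.03 to 11.8 CPM. Slpi stood at 641 to 1141 CPM over all cells, several times its level in T cells. Among the 10 granule proteins, Prf1, which encodes perforin, had 50.3, 35.7, 19.4 and 21.3 CPM (-1.07, adjusted p = 4.8e-05 with the block, and 0.0883 without it) and Gzma, which encodes the granzyme inhibited by Serpinb6b, had 1017, 1377, 1924 and 2026 CPM (0.73, adjusted p = 4.99e-05 with the block, and 0.157 without it). Gzmc was lower with the block (-0.89, adjusted p = 0.0355). Gzmb, the target of Serpinb9, had 1824, 1760, 1565 and 1561 CPM (-0.21, adjusted p = 0.0673 with the block). Other genes of these lists over 100 CPM in the T cells of every library were Nkg7 (3605 to 4169 CPM), Srgn (648 to 776), Ctsa (248 to 274), Cst3 (188 to 222), Gzmk (175 to 248), Lamp1 (138 to 145.0) and Cstb (112 to 128 CPM).

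In TE clusters, Prf1 (-1.49, SE 0.16, adjusted p = 0.00201 by edgeR) and Spint2, which encodes a Kunitz inhibitor of serine proteases (-1.07, SE 0.18, adjusted p = 0.0229), were lower in KO cells without the block, beside Serpina3g. In the joint clustering Prf1 still passed (-1.34, adjusted p = 0.0136) and Spint2 did not (-0.37, adjusted p = 0.642). With each library clustered on its own, 0 of 12 cathepsins and 0 of 3 cystatins passed without the block, where 1.04% of all genes did. With it, where 4.12% of all genes were lower and 3.57% higher, 1 of 12 cathepsins, 3 of 10 serpins, 4 of 9 other inhibitors, Ctla2a and Ctla2b included, and 4 of 9 granule proteins were lower, while the serpin Serpinb1a (0.77, adjusted p = 0.0198) and Gzma, a marker of these clusters, were higher.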

How the data were processed

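Single-cell RNA was measured with 10x Chromium 3′ chemistry in 4 libraries of sorted GP33+ CD8+ T cells. The authors deposited UMI counts of each gene in each barcode, not normalized, made with Cell Ranger 2.2.0 and bcl2fastq 2.17 on mm10, as the submitters' processing notes list. These counts were read as deposited. Cells under 500 genes or over 10% mitochondrial UMIs were removed and no doublet caller was run. Seurat 5.3.0 (R 4.3.3) clustered each library on 15 principal components of 2000 variable genes, at resolution 0.8, leaving out the 10 genes and the protease lists. A cluster was named from at least 3 markers detected in 10% of its cells and 2-fold higher there, and clusters under 1% were left out of the T cell sum. Joint clustering (RPCA) was added after the small KO1 MPEC-gene cluster had been seen, as was the interaction against all other T cells. UMIs were summed per library and cell group and tested with edgeR 4.0.16 (TMM, quasi-likelihood), with p-values adjusted over all genes tested. Log2 ratios added 1 CPM, and genes above 20 CPM gave the background of state ratios and the genes of like pattern. Libraries with the same number came from the same chimera. Their deviations from the genotype means correlated at r = 0.291 over 6863 genes, so the chimera was also fitted as a block. Alternatives were DESeq2 1.42.0, other filters, normalization and clusterings, and leaving out each library. On simulated data for all cells, edgeR without the block recovered 84.5% of 200 genes changed 2-fold among 11582 genes. The simulation gave all genes a common dispersion and held no difference between chimeras, so it does not measure recovery in data with such a difference. Single T cell states were not simulated. Named genes were the 10 members, listed family genes that passed over all cells or T cell clusters or exceeded 100 CPM, and the 3 genes most like each member. Also named were Serpinb1a, for its call in TE clusters with the block, and Ctse, for its difference between the chimeras. The Spint2 and Prf1 values in TE clusters were named after they had been seen. The members and lists were chosen with earlier results of these data known.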

Additional observations from a re-analysis of the deposited data

Results flagged for a closer look

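For 5 results the genotype difference differed between T cell states in a test of that difference. Against MPEC-gene clusters this was Serpina3g in TE clusters, with an interaction of -1.66 on the log2 scale (adjusted p = 0.000301 by edgeR). Against all other T cells these were Serpina3g (-1.33, adjusted p = 1.22e-05), Ctla2a (-1.07, adjusted p = 1.27e-10), Ctla2b (-1.04, adjusted p = 1.04e-06) and Ctsw (-0.36, adjusted p = 0.000363). The KO libraries had fewer Serpina3g and Ctla2b transcripts in TE clusters than in their other T cells in both chimeras (log2 ratios -1.07 and -0.86, and -0.77 and -0.98), whereas the WT libraries stood at -0.01 and 0.51, and at 0.14 and 0.19. In the joint clustering the WT ratios were below 0 too, at -0.52 and -0.19 for Serpina3g and at -0.28 and -0.16 for Ctla2b, and against the other T cells Serpina3g (adjusted p = 0.271 by edgeR) and Ctsw (0.198) no longer passed, while Ctla2a (-0.57, 6.25e-09) and Ctla2b (-0.58, 0.0288) did. The calls against the other T cells were not tried with a library left out. The call of Serpina3g against MPEC-gene clusters was lost in the joint clustering, with DESeq2, without WT2 and without KO2. The part of the lower TE marker sum of WT1 in these values was not tested.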

How the results depend on the processing

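The number of genes that passed depended on the fit. Over all cells 42 of 11566 genes passed without a block and 1116 with the chimera as a block, 199 of 11408 with DESeq2 and 67 of 9908 with equal numbers of thinned cells, and 40 to 228 with 1 library left out. Over T cell clusters 28 passed, against 1080 with the block, 163 with DESeq2, 13 with no filter on low counts, 853 with the block and joint clustering, and 16 to 177 with 1 library left out. In TE clusters 90 passed, against 665, 456 with no filter, 52 with the list genes kept in clustering, 43 with joint clustering, 217 with joint clustering and the block, and 34 to 358. In MPEC-gene clusters 18 passed, against 32, 85, 48, 40 and 131 in the same order, 11 at resolution 0.4, and 37 to 97. For the interaction 41 passed, against 2 with DESeq2, 17 with joint clustering, 273 against all other T cells, and 5 to 189. At resolution 0.4 WT1 gave no TE cluster, so TE clusters and the interaction have no value there. The block changed no call of the 10 genes other than those given above. Over every alternative, the block included, 424 of their fold changes kept direction and side of the threshold, 45 newly passed, 8 no longer passed and 53 turned sign. Ctsd over all cells turned to -0.0014 (block), -0.013 (DESeq2), -0.0018 (no filter), -0.0083 (RLE) and -0.0014 (cells with at least 800 genes). In TE clusters Serpinb6b turned to -0.11 with joint clustering and -0.096 with the block as well, and with the list genes kept Ctsc turned to 0.012 and Ctsd to -0.0026. In MPEC-gene clusters Serpinb9 (0.056) and Serpina3g (0.032) turned with the list genes kept, and Serpinb6b (0.042 and, with the block, 0.048) and Ctsd (0.0066 and 0.0048) with joint clustering. In the interaction Serpinb9 turned to -0.36 (list genes kept) and -0.11 (other T cells), Serpinb6b to -0.15 (joint clustering), Cst7 to -0.042 and Ctsb to -0.011 (other T cells) and Ctsw to 0.047 (DESeq2). Of state ratios with 1 sign in all 4 libraries, that of Serpinb6b in unnamed clusters turned to -0.0058 with joint clustering. Others, with no common sign, also turned, among them Ctsb in MPEC-gene clusters (from -0.14 to 0.12 with joint clustering) and Serpina3g there (from 0.14 to -1.22 with thinned cells, with KO1 at -5.91). With 1 library left out, fold changes over all cells ran from -0.51 to 0.050 for Serpinb6b, -0.53 to 0.19 for Ctla2a, -0.39 to 0.16 for Ctla2b, -0.42 to 0.15 for Cst7 and -0.087 to 0.081 for Ctsd. Over T cell clusters they ran from -0.47 to 0.057, -0.50 to 0.20, -0.36 to 0.16, -0.39 to 0.16 and -0.053 to 0.11 for the same genes. In TE clusters they ran from -0.17 to 0.24 for Serpinb6b, -0.35 to 0.063 for Cst7, -0.21 to 0.17 for Ctsc and -0.016 to 0.12 for Ctsd, and in MPEC-gene clusters from -0.96 to 0.0069 for Serpina3g and -0.96 to 0.066 for Ctsc. In the interaction they ran from -0.28 to 0.40 for Serpinb9, -0.85 to 0.97 for Ctla2a, -0.64 to 0.18 for Ctla2b, -0.054 to 1.02 for Ctsc and -0.35 to 0.66 for Ctsw. The causes were not tested. With 2 libraries per genotype, a lone library is assumed to vary like the others.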

Other observations

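One cathepsin of the lists differed between the chimeras and not between the genotypes. Ctse, which encodes the aspartic protease cathepsin E, was counted in T cell clusters at 165 CPM in WT1 and 158 CPM in KO1, both of chimera 1, against 10.0 CPM in WT2 and 14.0 CPM in KO2. Over all cells the levels were 158, 13.9, 150 and 17.6 CPM in WT1, WT2, KO1 and KO2. The log2 fold change of KO over WT in T cell clusters had an SE of 1.27 without the chimera as a block and was 0.13 (SE 0.10, adjusted p = 0.492 by edgeR) with it. Bcl3 had the opposite order, with 29.1 and 20.4 CPM in the T cell clusters of chimera 1 and 108 and 84.5 CPM in those of chimera 2.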
